A study of Mus musculus with 6 samples.

Results

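The genes described here are 32 chaperones, degradation factors, sensors and Atf4 targets of the unfolded protein response, taken by gene name from the 54532 genes counted in each library. They were sorted by role into 14 chaperones and folding enzymes, 7 factors of endoplasmic reticulum (ER)-associated degradation, 4 sensors and relays, and 7 genes of the Atf4 branch. Ddit3 has 2 entries in the gene table, of which the one with counts was used, because the other was at 0 in all 6 libraries. The tissue was intestine of newborn mice of C57BL/6, an inbred laboratory strain. NECA, an agonist of several adenosine receptors derived from adenosine itself, was given for 5 days to the tissue of 3 libraries, and the solvent DMSO to that of 3 others. The labels name no transgene or deletion, and they state neither the bowel segment, the route of dosing nor the number of animals behind a library. What the p-values weigh is thus the spread from library to library, part of which may be technical.

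Proteins that enter the secretory pathway fold in the ER with the help of chaperones such as BiP (Hspa5) and of enzymes that form disulfide bonds, and those that fail to fold are moved back to the cytosol and degraded. When unfolded protein builds up, the sensors IRE1 (Ern1), PERK (Eif2ak3) and ATF6 start the unfolded protein response: IRE1 splices the Xbp1 transcript, ATF6 is cleaved into a transcription factor, and PERK slows translation while favouring that of Atf4. Chaperones and degradation factors are largely targets of ATF6 and spliced XBP1, whereas the Atf4 branch carries genes of amino acid supply and of prolonged stress. Goblet and Paneth cells, which secrete mucin and antimicrobial proteins, depend on this pathway in the gut.

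Some promoters of the members carry the sequences by which these branches are usually told apart. The matches are shown because, among the members, ERSE was found in chaperone and degradation genes alone. Of the 32 members, 28 had RefSeq promoter windows (GRCm38.p6), and the 250 bases before the annotated start were searched on both strands. Hyou1, Manf, Atf6 and Derl1 were not matched. The ER stress response element (ERSE), spelled CCAAT and CCACG with any 9 bases between, pairs a site for the factor NF-Y with a site for ATF6. It was present in 7 of 12 chaperone promoters, in 2 of 6 degradation promoters and in 0 of 3 sensor and 0 of 7 Atf4 branch promoters, against 35 of 27025 genes with a window (0.13%). In the stretches below, written 5′ to 3′ on the strand of the gene, the capitals mark the ERSE ends CCAAT and CCACG, or their reverse complements CGTGG and ATTGG where the element lies on the opposite strand.
Hspa5 (chr2:34772005-34772063, + strand): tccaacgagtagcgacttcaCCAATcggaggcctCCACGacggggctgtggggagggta
Hsp90b1 (chr10:86705513-86705676, - strand): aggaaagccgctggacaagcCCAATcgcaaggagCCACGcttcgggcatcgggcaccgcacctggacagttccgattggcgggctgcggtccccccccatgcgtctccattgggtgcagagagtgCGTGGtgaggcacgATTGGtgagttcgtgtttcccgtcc
Pdia6 (chr12:17266471-17266529, + strand): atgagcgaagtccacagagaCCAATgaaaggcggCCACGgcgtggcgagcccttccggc
Calr (chr8:84847055-84847113, - strand): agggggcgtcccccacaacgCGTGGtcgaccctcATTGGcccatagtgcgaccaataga
Canx (chr11:50325780-50325838, - strand): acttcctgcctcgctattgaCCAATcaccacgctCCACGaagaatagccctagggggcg
Dnajc3 (chr14:118937807-118937865, + strand): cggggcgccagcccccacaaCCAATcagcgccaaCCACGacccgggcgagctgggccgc
Creld2 (chr15:88819500-88819558, + strand): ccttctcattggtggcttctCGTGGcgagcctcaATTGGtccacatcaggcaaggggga
Syvn1 (chr19:6046512-6046570, + strand): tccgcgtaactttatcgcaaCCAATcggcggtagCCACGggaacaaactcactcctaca
Derl3 (chr10:75893222-75893280, + strand): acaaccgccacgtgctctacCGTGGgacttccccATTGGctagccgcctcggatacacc
Hspa5 had its element at positions -65 to -47 relative to the start. Hsp90b1 was the only member with 2 copies, at -212 to -194 and at -107 to -89. A shorter form, ERSE-II, spelled ATTGG and CCACG with any 1 base between, occurred in Herpud1 alone among the members and in 10 of the 27025 genes (0.037%). The element bound by ATF4 together with C/EBP proteins, here called CARE, is spelled TGATGNAA. It was found in Asns and Chac1 (2 of 7 Atf4 branch promoters) and in Herpud1 (1 of 6 degradation promoters). It was in 0 of 12 chaperone and 0 of 3 sensor promoters, and in 1056 of all genes with a window (3.91%). In the next stretches the capitals mark CARE, or its reverse complement, and in Herpud1 also ERSE-II.
Asns (chr6:7693210-7693252, - strand): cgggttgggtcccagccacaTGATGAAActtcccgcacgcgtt
Chac1 (chr2:119351029-119351076, + strand): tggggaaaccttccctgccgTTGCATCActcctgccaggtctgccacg
Herpud1 (chr8:94386297-94386407, + strand): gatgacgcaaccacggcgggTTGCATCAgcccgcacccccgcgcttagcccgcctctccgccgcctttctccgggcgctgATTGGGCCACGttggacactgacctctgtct
Herpud1 was thus the only member whose window held an element of both kinds. The core of a further element, UPRE, spelled TGACGTGG, was in 0 of 28 member windows and in 163 of 27025 (0.603%), and its reverse complement overlaps the CCACG end of ERSE by those letters. A match describes these letters only, and their absence from a window says nothing of sites elsewhere.

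The libraries held 15531996 to 18065078 counts, and all 32 members passed the filter on low counts that left 15847 genes. One library stood apart. NECA replicate 2 had a median correlation of 0.944 with the other libraries, against 0.971 to 0.986 for the rest, across genes, which are not independent replicates. The 10 enterocyte markers summed to 11573 CPM (counts scaled to library size with TMM factors) in NECA replicate 2 and to 47399 to 55496 CPM in the other libraries, and 8 markers of jejunum to 191 CPM against 4777 to 5236 CPM. Of the enterocyte markers 7 were lowest and 3 highest in NECA replicate 2, and all 8 of jejunum were lowest in it. The jejunum list shares Fabp1 and Lct with the enterocyte list. The 8 ileum markers summed to 3439.7 CPM in NECA replicate 2 and to 767 to 1159 CPM in the other libraries. Of these markers, 7 of 8 were highest in NECA replicate 2. Results are therefore given with all libraries and without that one. With edgeR's quasi-likelihood test, 0 of the 32 members and 0 of all 15847 genes (0%) passed an adjusted p of 0.05. At an unadjusted p under 0.05, 3 members passed, Hyou1, Edem1 and Chac1, all higher in NECA, where 2.45% of all genes passed as higher and 3.03% as lower, 868 genes in all (5.48%). Without NECA replicate 2, 0 members had such a p, against 5.49% of the 16121 genes then tested, and 0 genes passed the adjusted threshold. DESeq2 called 11 genes (0.0695%), none of them among the 32 members, whose smallest DESeq2 adjusted p was 0.703.

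Levels between genes were compared per length, on the FPKM values deposited by the authors. The chaperones were the most abundant members: averaged over all 6 libraries, Calr, the lectin chaperone calreticulin, was at 254 FPKM, and the disulfide isomerase Pdia3, which works with it, at 192 FPKM. Hspa5 was at 163 FPKM, Hsp90b1, the ER form of HSP90, at 110.5 FPKM, and the membrane lectin Canx at 95.7 FPKM. Transcripts of the regulators covered a wide range, with Atf4 at 62.5 and Xbp1 at 53.8 FPKM, Eif2ak3 at 6.85, Atf6 at 4.96 and Ern1 at 1.997 FPKM. The stress-induced genes Trib3 and Chac1 were at 1.74 and 0.799 FPKM. The lowest was Derl3, at 0.414 FPKM, a derlin known from secretory cells such as plasma cells and pancreatic acini. Derl1, its widely expressed relative, was at 50.7 FPKM.

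**Figure D1:**
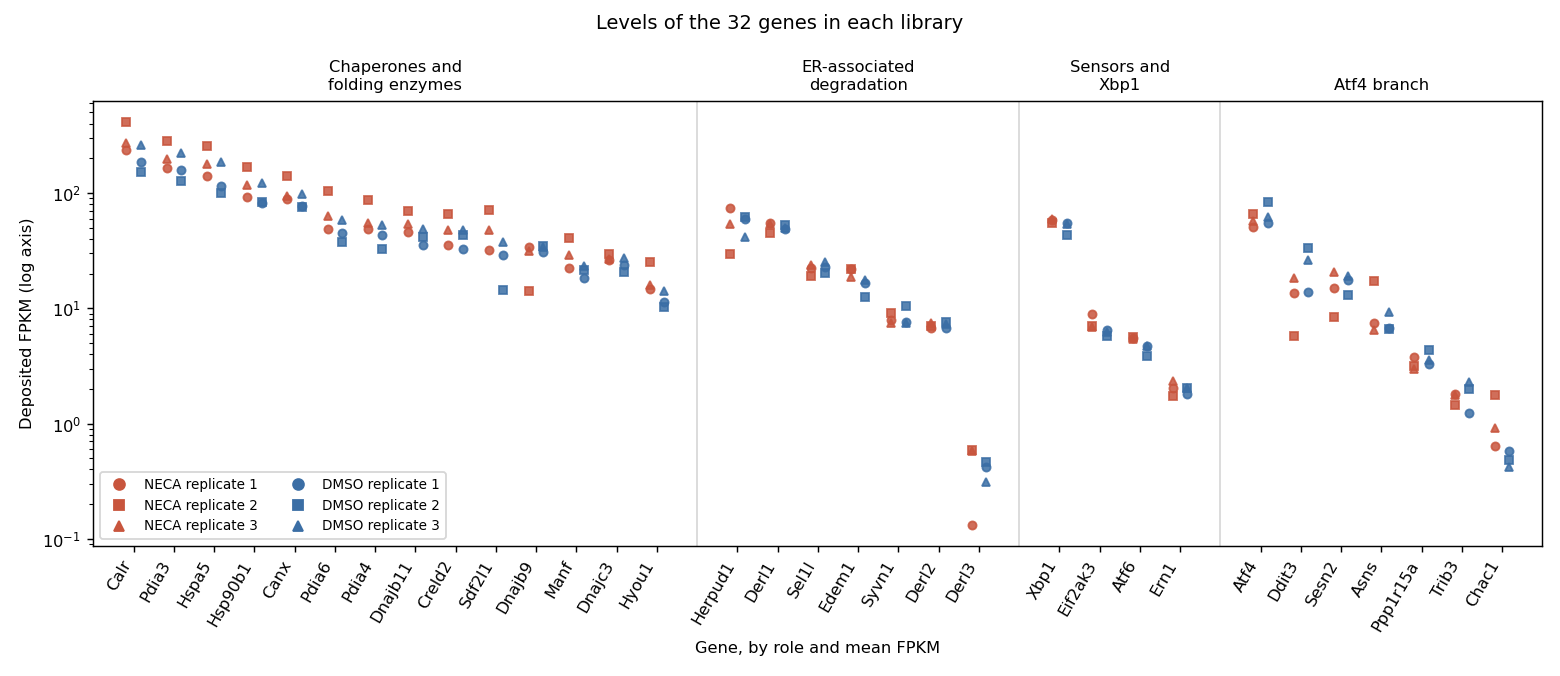
Deposited FPKM of the 32 genes (log axis), with 3 NECA libraries to the left and 3 DMSO libraries to the right of each tick, ordered by role and by mean FPKM. Calr is the most abundant at a mean of 254 FPKM and Derl3 the least at 0.414 FPKM, and the NECA replicate 2 square is the highest point in 13 of the 14 chaperones.

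Most chaperones and folding enzymes had higher mean levels in NECA than in DMSO, and the difference was smaller without NECA replicate 2. Of the 14, 13 had a log2 fold change above 0 (92.9%, against 49% of all tested genes), with a median of 0.46, where the median of all genes was -0.01. Without NECA replicate 2, 12 of 14 were above 0 (against 47.4% of genes) and the median was 0.23. DMSO replicate 2 was the lowest library for 8 of the 14, and without it the median was 0.37. The 14 summed to 3489, 6083 and 4168 CPM in NECA and to 3036, 2788 and 4273 CPM in DMSO. DMSO replicate 3 thus lay above NECA replicates 1 and 3. The members share the same 6 libraries, so their counts are not independent observations. They were also chosen with earlier results of these data known. None passed the edgeR test, with adjusted p of 0.738 to 0.771.

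Hspa5 (chromosome 2, 34771970 to 34777547, GRCm38), the main ER chaperone and a common gauge of this response, reached 594, 1102 and 757 CPM in NECA and 489, 436 and 799 CPM in DMSO. The groups overlapped: DMSO replicate 3 lay above NECA replicates 1 and 3. The log2 fold change was 0.51 (SE 0.32), and 0.24 (SE 0.27) without NECA replicate 2. Calr was at 671, 1213 and 777 CPM in NECA and at 536, 450.2 and 766 CPM in DMSO, a log2 fold change of 0.60 (SE 0.31), with DMSO replicate 3 again inside the range of NECA. Hsp90b1, at 366, 680 and 476 CPM in NECA and 331, 342 and 497 CPM in DMSO, and Pdia3, at 518, 892 and 619 CPM in NECA and 502, 410.1 and 710.3 CPM in DMSO, also had DMSO replicate 3 above NECA replicates 1 and 3. Their fold changes were 0.38 (SE 0.28) and 0.32 (SE 0.29). In each of these 4 genes the highest library was NECA replicate 2. Leaving that library out put Calr at 0.31, Hsp90b1 at 0.11 and Pdia3 at 0.075.

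Hyou1 (chromosome 9, 44379490 to 44392369), which exchanges the nucleotide of BiP, was the only chaperone whose groups did not overlap. It was at 106, 185 and 116 CPM in NECA and at 82.9, 75.5 and 104 CPM in DMSO. Its log2 fold change was 0.63 (SE 0.24), at an unadjusted p of 0.0323 and an adjusted p of 0.738 with edgeR. Without NECA replicate 2 it was 0.35 (SE 0.16). Sdf2l1, a component of the BiP chaperone complex, had the largest fold change of the chaperones, 0.90 (SE 0.40). It was at 34.9, 80.0 and 53.6 CPM in NECA and at 32.3, 16.3 and 42.0 CPM in DMSO, so that NECA replicate 1 lay below DMSO replicate 3, and its fold change without NECA replicate 2 was 0.55. Manf, a small secreted protein of the ER, was at 78.1, 145 and 102 CPM in NECA and at 65.5, 76.7 and 82.1 CPM in DMSO, a log2 fold change of 0.53 (SE 0.23), and 0.27 (SE 0.16) without NECA replicate 2.

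The other chaperones with a fold change above 0 ranged from 0.18 for the cochaperone Dnajc3 to 0.61 for the disulfide isomerase Pdia6, which were 0.12 and 0.23 without NECA replicate 2. Creld2, an ER protein induced by this response, had a fold change of 0.26 with all libraries and of -0.004 without NECA replicate 2. Dnajb9, a BiP cochaperone that also keeps IRE1 inactive, went the other way and is described outside the naming rule, chosen after its values were seen. It was at 85.8, 36.4 and 81.0 CPM in NECA and at 78.8, 89.7 and 87.3 CPM in DMSO. NECA replicate 2 was its lowest library, and without it the log2 fold change was -0.03 (SE 0.12) in place of -0.33 (SE 0.30).

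Members of ER-associated degradation did not share the pattern of the chaperones. Their median log2 fold change was -0.04 and 3 of 7 were above 0, a count that became 1 when NECA replicate 3 was left out and 6 when DMSO replicate 2 was. None passed the edgeR test (adjusted p of 0.738 to 0.989). Edem1 (chromosome 6, 108828641 to 108859356), a lectin that hands misfolded glycoproteins to degradation, was the exception. It was at 141, 143 and 121 CPM in NECA and at 107, 82.4 and 115 CPM in DMSO, with no overlap between the groups. The log2 fold change was 0.41 (SE 0.17), at an unadjusted p of 0.0429 and an adjusted p of 0.738 with edgeR. It was 0.37 (SE 0.17) without NECA replicate 2. Without DMSO replicate 2, the lowest library for Edem1, it was 0.28 (SE 0.15).

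Herpud1, a membrane protein that gathers the degradation machinery, was at 171, 70.1 and 127 CPM in NECA and at 142, 148 and 98.3 CPM in DMSO. The NECA libraries held both its highest and its lowest value, the lowest being that of NECA replicate 2. The fold change was -0.07 (SE 0.32), and 0.21 (SE 0.21) without that library. Sel1l and Syvn1, the scaffold and the ubiquitin ligase of the central degradation complex, differed by -0.08 (SE 0.17) and -0.08 (SE 0.18). Sel1l was at 191, 165 and 204 CPM in NECA and at 195, 175 and 218 CPM in DMSO. Syvn1 was at 37.5, 43.7 and 35.6 CPM in NECA and at 36.4, 50.7 and 36.2 CPM in DMSO. Both genes had overlapping groups with close means. The channel components Derl1 and Derl2 differed by 0.009 (SE 0.15) and -0.04 (SE 0.13), with Derl1 at 182, 151 and 178 CPM in NECA and 163, 179 and 166 CPM in DMSO. For Derl3 the 4, 24 and 20 counts in NECA and 15, 14 and 10 counts in DMSO gave a fold change of 0.14 (SE 0.55), and no difference was detectable at this depth. Without NECA replicate 2, Syvn1 was at -0.16, Sel1l at 0.0093, Derl1 at 0.093 and Derl3 at -0.16.

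The 4 sensors and relays had small fold changes above 0, with a median of 0.23, which leaving out DMSO replicate 2 brought to 0.15 and leaving out NECA replicate 2 to 0.24. Atf6 was at 50.5, 52.5 and 50.0 CPM in NECA and at 43.6, 36.3 and 43.8 CPM in DMSO, with a log2 fold change of 0.31 (SE 0.13). Eif2ak3 was at 53.3, 42.5 and 41.3 CPM in NECA and at 39.2, 35.1 and 37.9 CPM in DMSO (0.29, SE 0.15). Both were above the DMSO range in each NECA library. Xbp1, at 186, 181 and 193 CPM in NECA and 179, 142 and 175 CPM in DMSO, did not overlap either, but its lowest NECA library and its highest DMSO library lay next to each other. Its fold change was 0.17 (SE 0.16). Ern1 was at 16.5, 14.5 and 19.0 CPM in NECA and at 14.95, 16.9 and 16.8 CPM in DMSO, with overlapping groups (0.04, SE 0.17, and 0.14 without NECA replicate 2). With edgeR these 4 had adjusted p of 0.738 to 0.953. Gene counts do not separate spliced from unspliced Xbp1, nor do they show cleaved ATF6 or translated ATF4, so the state of the sensors was not measured.

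NECA and DMSO libraries were fully apart in 6 members, Hyou1, Edem1, Atf6, Eif2ak3, Xbp1 and Chac1, and each was higher in NECA. That is 18.8% of the members, where 6.49% of all tested genes had NECA above DMSO without overlap, 7.16% had NECA below, and 13.7% fell in either class. No member had NECA below DMSO without overlap. The gaps of Xbp1 and Chac1 were narrow. Because the members were chosen with earlier results of these data known, their share and that of all genes are not an independent comparison.

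In the Atf4 branch 2 of 7 genes had a fold change above 0, and the median log2 fold change was -0.18. Leaving out NECA replicate 2 gave -0.13, and leaving out DMSO replicates 1, 2 and 3 in turn gave -0.27, -0.049 and -0.065. None passed the edgeR test (adjusted p of 0.738 to 0.893). Atf4 (chromosome 15, 80255184 to 80257541), the transcription factor of the branch, was at 119, 157 and 135 CPM in NECA and at 131, 202 and 149 CPM in DMSO. The groups overlapped, and DMSO replicate 2 was the highest (-0.23, SE 0.21). Ddit3 (chromosome 10, 127290774 to 127296288), which encodes CHOP, a factor of prolonged ER stress, was at 23.1, 9.87 and 31.7 CPM in NECA and at 23.9, 57.8 and 45.0 CPM in DMSO. Of the NECA libraries, replicate 3 lay above DMSO replicate 1. Its log2 fold change of -0.97 (SE 0.45) was the lowest of all members, at an unadjusted p of 0.067 and an adjusted p of 0.738 with edgeR, and was -0.61 (SE 0.34) without NECA replicate 2. Its exons overlap those of the tRNA synthetase gene Mars on the opposite strand over 3.97% of their length, and the strand setting of the counting is not given in the sources used here.

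Chac1 (chromosome 2, 119351229 to 119354381), which encodes a glutathione-degrading enzyme, had 16, 59 and 26 counts in NECA and 17, 12 and 11 counts in DMSO. Scaled to library size it was at 1.03, 2.94 and 1.49 CPM in NECA and at 0.949, 0.803 and 0.688 CPM in DMSO, so that the groups did not overlap, by a narrow gap. The log2 fold change of 1.17 (SE 0.46) had an unadjusted p of 0.0362 and an adjusted p of 0.738 with edgeR, and was 0.63 (SE 0.43) without NECA replicate 2. Asns, asparagine synthetase, was at 20.4, 47.5 and 17.6 CPM in NECA and at 18.6, 18.3 and 25.4 CPM in DMSO. Only NECA replicate 2 was high, and the fold change of 0.46 (SE 0.38) became -0.13 (SE 0.20) without it. Sesn2, a sensor of leucine that restrains growth signalling, was at 52.1, 29.4 and 72.5 CPM in NECA and at 61.3, 46.2 and 66.8 CPM in DMSO (-0.18, SE 0.31). Trib3, a pseudokinase that dampens ATF4, and Ppp1r15a, which restores translation after stress, differed by -0.15 (SE 0.30) and -0.18 (SE 0.20). Sesn2 was at 0.10 and Trib3 at -0.050 without NECA replicate 2.

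Set against each other, chaperone and degradation genes together had a median log2 fold change of 0.35 over 21 genes. Of these, 16 were above 0 (76.2%, against 49% of all tested genes). The Atf4 branch had a median of -0.18 over 7 genes, a difference of 0.53. Taken apart, the 14 chaperones were at 0.46, and the 7 degradation genes at -0.04 with 3 above 0. Leaving out NECA replicate 2 gave 0.24, and leaving out DMSO replicate 2 gave 0.34. In each library the mean log2(CPM + 1) of the chaperone and degradation genes minus that of the Atf4 branch was 2.82, 3.22 and 2.88 in NECA and 2.73, 2.36 and 2.68 in DMSO. The NECA libraries all lay above the DMSO libraries in this difference, NECA replicate 1 by little, and it carries no test. The chaperones alone averaged 7.41, 8.09 and 7.67 in NECA and 7.22, 7.12 and 7.63 in DMSO on that scale, and overlapped. The Atf4 branch averaged 4.08, 4.10 and 4.20 in NECA and 4.03, 4.35 and 4.34 in DMSO, and overlapped too. The difference of 0.53 holds for the 7 branch genes listed, whose fold changes spread from -0.97 for Ddit3 to 1.17 for Chac1. Atf4 targets outside that list did not share its negative median. The 12 tRNA synthetases of the Atf4 programme had a median log2 fold change of 0.37, and the 30 other targets 0.03. With NECA replicate 2 excluded, these medians were 0.10 and 0.03.

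**Figure D2:**
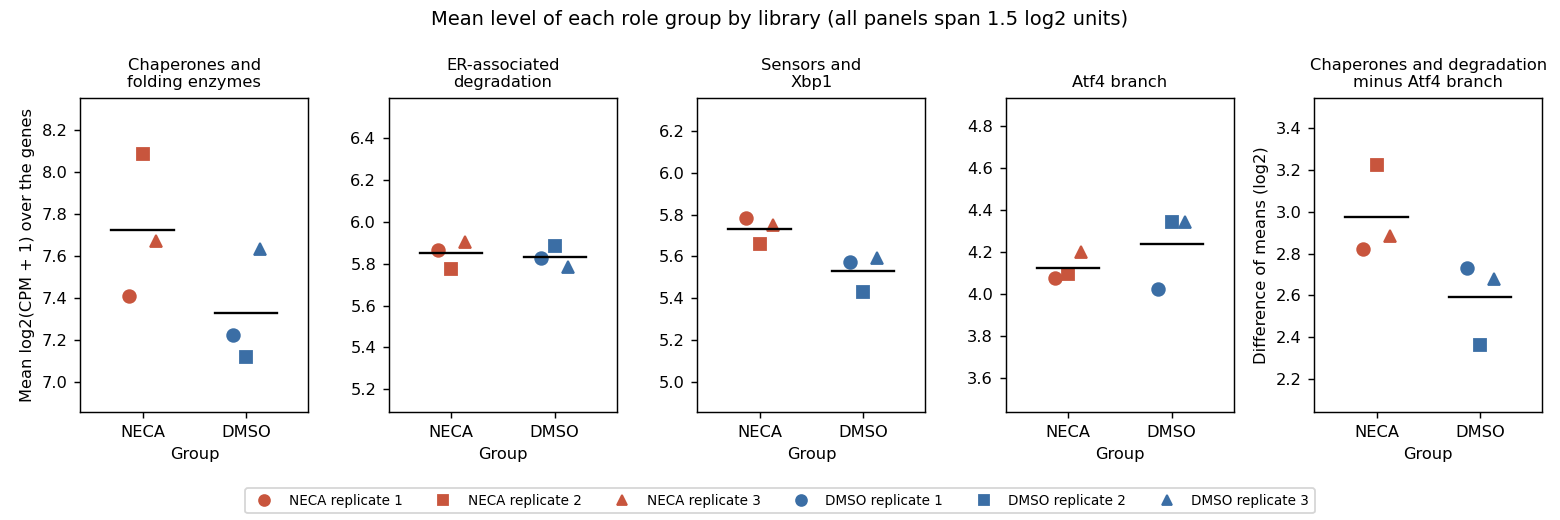
Mean log2(CPM + 1) of each role group in every library, and the chaperone and degradation mean minus the Atf4 branch mean, with NECA left of DMSO and a bar at the mean of 3 libraries; each panel spans the same height. The difference in the last panel is 2.82 to 3.22 in NECA and 2.36 to 2.73 in DMSO, while the chaperone and Atf4 branch panels overlap.

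**Figure D3:**
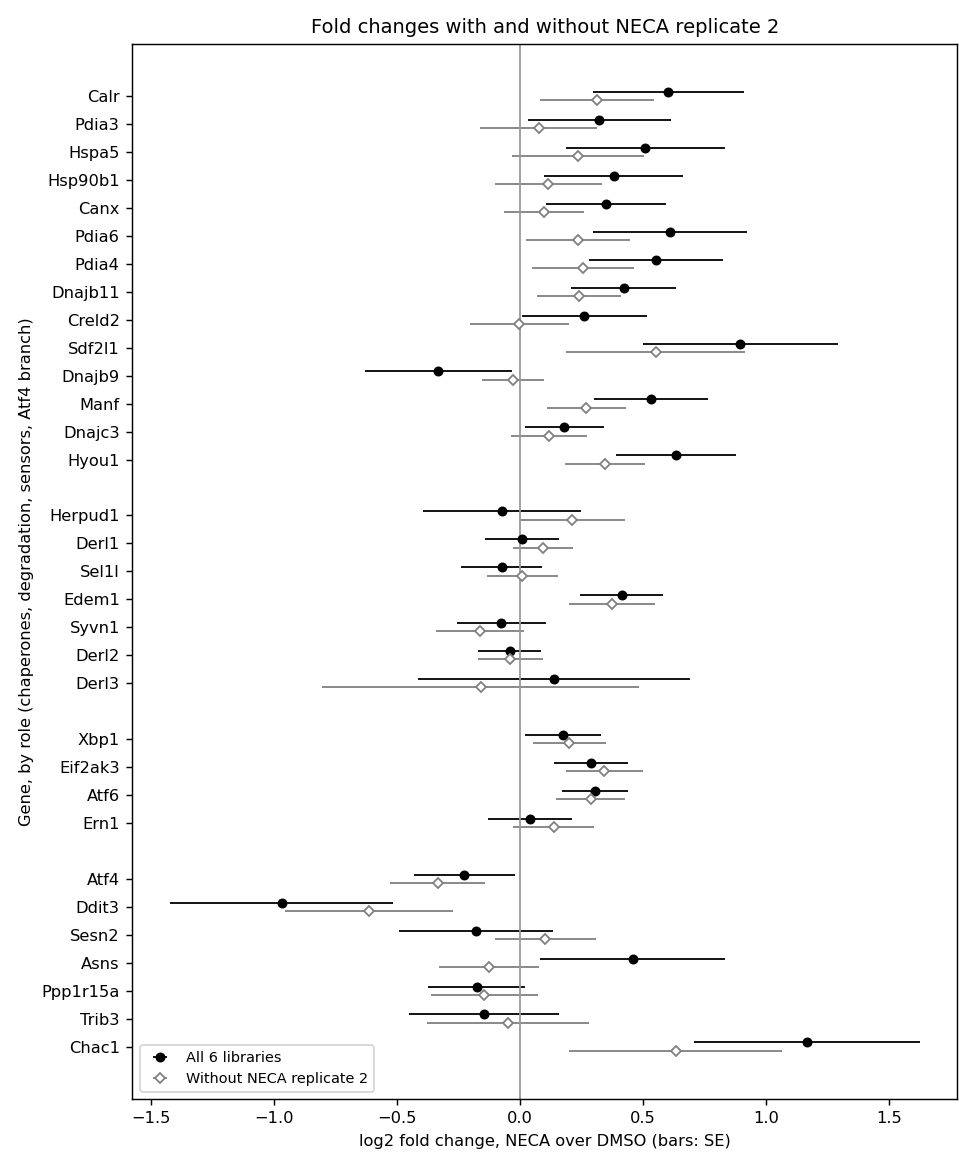
Log2 fold change of NECA over DMSO with its standard error for each gene, with all 6 libraries (filled) and without NECA replicate 2 (open). Hspa5 is at 0.51 with all libraries and 0.24 without that one, and Edem1 at 0.41 and 0.37.

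A ratio of 2 genes within a library does not depend on scaling. For each 1000 counts of Hspa5 there were 38.9, 8.95 and 42.0 counts of Ddit3 in NECA and 48.8, 133 and 56.3 in DMSO. The groups did not overlap in this ratio, which was chosen after the values were seen and is not tested. Its extremes were the replicates numbered 2, which also differed most in the chaperones. The same ratio for Dnajb9 was 144, 33.0 and 107 in NECA and 161, 206 and 109 in DMSO. For Herpud1 it was 288, 63.6 and 168 in NECA and 289, 340 and 123 in DMSO. The groups overlapped for both of these genes.

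NECA replicate 2 and DMSO replicate 2 lay at opposite ends for much of the pathway. In NECA replicate 2, 13 of 14 chaperones had their highest level of the 6 libraries, where 30.1% of all tested genes did. Relative to the mean of the other 5 libraries the chaperones had a median ratio of 1.74, from 0.431 for Dnajb9 to 2.23 for Sdf2l1. In the same library Ddit3 was at 0.272, Sesn2 at 0.491 and Herpud1 at 0.511 of that mean, while Asns was at 2.37 and Chac1 at 2.96. In NECA replicate 2, low Dnajb9, Herpud1, Ddit3 and Sesn2 thus stood beside high Asns, Chac1 and most chaperones. Edem1 was at 1.26 times the mean of the other 5 libraries. In DMSO replicate 2, 8 of 14 chaperones had their lowest level, against 25.1% of genes, and Ddit3 was at 2.16 and Atf4 at 1.46 times the mean of the others. The same libraries were the extremes of the share of counts from mitochondrial genes, at 1.31% in NECA replicate 2 and 8.39% in DMSO replicate 2, against 2.80% to 4.49% in the others. Xist, the transcript of the inactive X chromosome, had 11 counts in NECA replicate 1 and 14 in DMSO replicate 2, against 2956 to 5840 in the other libraries. The part of either in these levels was not tested.

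**Figure D4:**
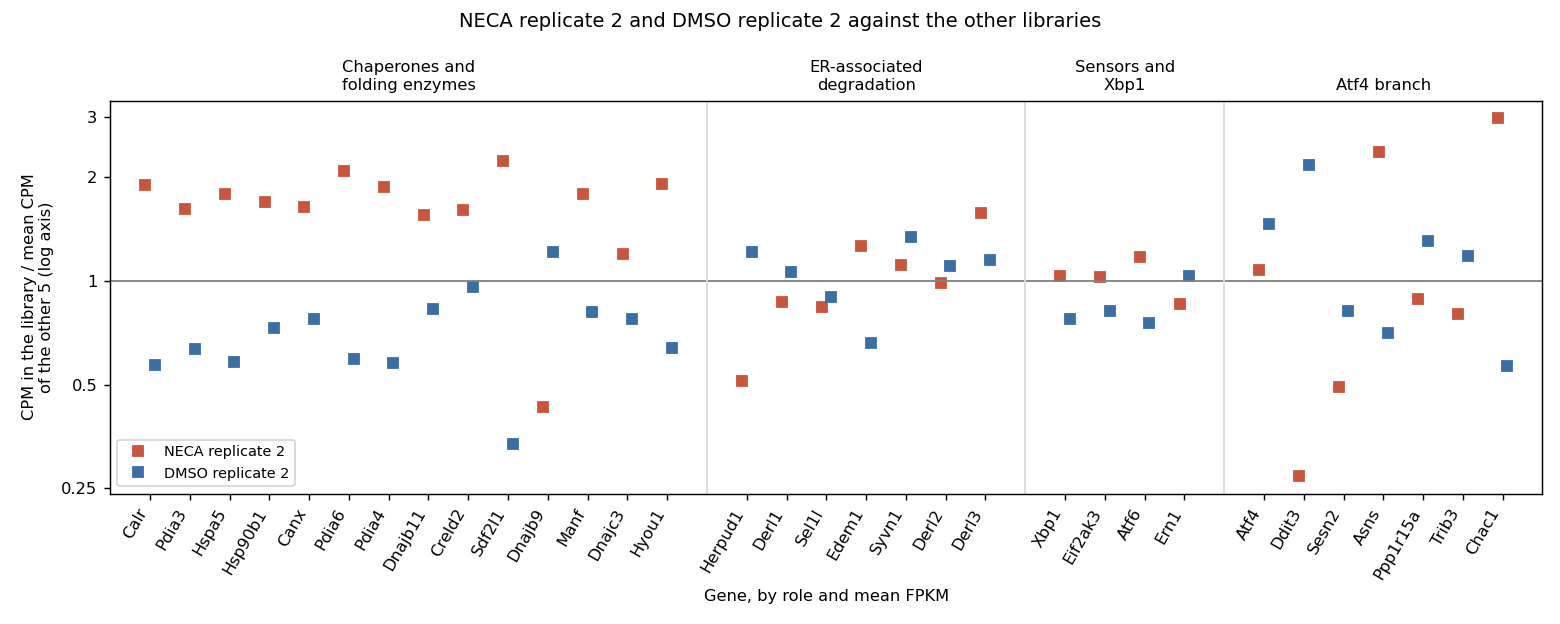
CPM in NECA replicate 2 (left) and DMSO replicate 2 (right) divided by the mean CPM of the other 5 libraries (log axis), for each of the 32 genes. NECA replicate 2 lies above 1 in 13 of 14 chaperones and at 0.431 in Dnajb9, and DMSO replicate 2 reaches 2.16 in Ddit3.

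Markers of secretory and dividing cells were also highest in NECA replicate 2, and in whole tissue fewer cells of a type and less RNA per cell cannot be told apart. The 11 goblet cell markers, among them the mucin Muc2 and the ER isomerase Agr2, summed to 1149, 5252 and 1446 CPM in NECA and to 2318, 649.7 and 2534 CPM in DMSO. This sum was highest in NECA replicate 2 and lowest in DMSO replicate 2, as was the sum over the chaperones. The 13 proliferation markers summed to 1116, 2391 and 1119 CPM in NECA and to 969.5, 1015 and 1284 CPM in DMSO, and the 9 Paneth cell markers to 75.4, 298 and 182 CPM in NECA and 63.0, 14.9 and 181 CPM in DMSO. Their part in the chaperone levels was not tested. Without NECA replicate 2, 0 of 11 goblet markers had a fold change above 0 (median -0.52), against 47.4% of all genes then tested. The goblet sums of the DMSO libraries in that comparison spread from 649.7 to 2534 CPM. The 11 plasma and B cell markers summed to 104, 269 and 108 CPM in NECA and 153, 141 and 133 CPM in DMSO, and Sdc1, which epithelium also expresses, made up 252 CPM of that in NECA replicate 2. The other 4 of the 5 tested, Ighm, Igkc, Cd79a and Cd79b, had lower means in NECA. Each had an unadjusted edgeR p under 0.05, where 3.03% of all tested genes passed as lower, and an adjusted p of 0.738. The median log2 fold change of the 5 was -1.81. DMSO replicate 2 was the highest library for 4 of the 5. In 2 of the 5, NECA lay below DMSO without overlap, where 7.16% of all tested genes did. Of the defining markers Jchain had at most 3 counts in any library. Pancreatic acinar markers summed to 89.4, 6.78 and 103 CPM in NECA and 71.2, 56.9 and 91.3 CPM in DMSO, with 4 of 16 passing the filter and Amy2a5 at 0 in every library.

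The fold changes of chaperones with and without an ERSE match overlapped. They ran from 0.18 to 0.61 with the element and from -0.33 to 0.90 without it. Chaperones counted as without it lack only an exact match in the bases searched. Hyou1 and Manf, which had no window, are in neither set. Whether the element has a part in the fold changes was not tested. The 7 chaperones with the element had a median log2 fold change of 0.38 and the 5 without it 0.42, or 0.12 and 0.24 without NECA replicate 2. Over all members with a window, the 10 with ERSE or ERSE-II had a median of 0.31 (8 above 0) and the 18 without either had 0.11 (10 above 0), and without NECA replicate 2 these medians were 0.12 and 0.089. Among tested genes outside the list, 7 carried an ERSE, and 2 of them had a fold change above 0, with a median of -0.08.

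The wider pathway, 155 tested genes of 6 further lists, gave 101 genes with a fold change above 0 and a median of 0.08. That is 65.2%, against 49% of all tested genes. Without NECA replicate 2, 105 of the 155 were above 0, against 47.4% of genes, and the median was 0.06. With all libraries none passed the edgeR test, with a smallest adjusted p of 0.738. With edgeR, 6 (3.87%) had an unadjusted p under 0.05, all higher in NECA. Of all tested genes, 2.45% passed as higher and 5.48% in either direction. NECA lay above DMSO without overlap in 16 (10.3%), where 6.49% of all tested genes did. It lay below without overlap in 5, where 7.16% of all tested genes did. These lists, too, were chosen with earlier results of these data known. Of 25 other folding genes, 18 were above 0, with a median of 0.06. P4hb, a disulfide isomerase that is also a subunit of the lipid transfer protein of enterocytes, was the most abundant, at 1389.5 FPKM. It was at 4469, 2152 and 4221 CPM in NECA and at 4202, 4345 and 4635 CPM in DMSO, lowest in the library where Pdia3, Pdia4 and Pdia6 were highest. Ero1lb, an oxidase that recharges the isomerases, differed by -0.54 (SE 0.24), with NECA below DMSO without overlap. Txndc11 differed by 0.30 (SE 0.16), with overlap. Of 23 other degradation genes, 13 were above 0 (median 0.01). Edem2, which trims mannose from glycoproteins and is related to Edem1, was at 71.6, 74.4 and 71.8 CPM in NECA and at 57.7, 51.9 and 56.4 CPM in DMSO, without overlap (0.39, SE 0.12; 0.38 without NECA replicate 2; edgeR adjusted p of 0.738). Erlec1 and Os9 are both lectins of the same step. Erlec1 differed by -0.41 (SE 0.22), with NECA below DMSO without overlap. Os9, the most abundant of that list, differed by -0.36 (SE 0.26), with overlap. Ero1lb was at -0.33, P4hb at -0.012, Erlec1 at -0.20 and Os9 at -0.10 without NECA replicate 2.

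Of 41 genes of entry into the ER and transport out of it, 29 were above 0 (median 0.11), among them the channel subunit Sec61a1 (0.40, SE 0.24) and the signal recognition particle gene Srp54a (0.81, SE 0.36), whose value is uncertain because the mouse has near-identical copies of it. The cargo receptor Surf4, the most abundant, differed by -0.04 (SE 0.27). Leaving out NECA replicate 2 put Sec61a1 at 0.24 and Surf4 at 0.19. All 12 tRNA synthetases of the Atf4 programme were above 0, with a median of 0.37 and 0.10 without NECA replicate 2. Each of them was highest in that library, and the smallest unadjusted p belonged to Mars (0.59, SE 0.25) and Nars (0.55, SE 0.26). The 30 other Atf4 targets divided evenly, 15 above and 15 below 0 (median 0.03). Ndrg1, a stress-responsive gene, was at 75.7, 113 and 74.5 CPM in NECA and at 56.8, 49.9 and 65.1 CPM in DMSO (0.61, SE 0.20), and the translation inhibitor Eif4ebp1 differed by 0.41 (SE 0.17). Both had groups that did not overlap. Aldh18a1, of proline synthesis and the most abundant of the list, differed by -0.13 (SE 0.35). Of 24 further regulators, 14 were above 0 (median 0.02). Atf6b, a relative of Atf6, differed by 0.53 (SE 0.22), the apoptosis gene Bax by 0.34 (SE 0.16) and Tmbim6, an ER membrane protein that inhibits cell death, by -0.10 (SE 0.23). Leaving out NECA replicate 2 put Mars at 0.29, Nars at 0.27, Ndrg1 at 0.39 and Eif4ebp1 at 0.24. Aldh18a1 was then at 0.17, Atf6b at 0.28 and Tmbim6 at 0.031. By list, 16 of 25 folding, 14 of 23 degradation and 32 of 41 entry and transport genes were above 0 without that library. The same held for 10 of 12 tRNA synthetases, 17 of 30 other Atf4 targets and 16 of 24 regulators.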

How the data were processed

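RNA from newborn mouse intestine was converted to cDNA with SMARTer chemistry, amplified, fragmented and sequenced in paired ends, per the labels' protocols. The authors deposited, for each library, raw whole-number counts per gene and FPKM values for 54532 genes, per the file headers. The submitters' processing notes name HISAT, StringTie, edgeR, mm10 and GRCm38. For versions, settings, strand and multiply mapped reads the sources used here give nothing. Each FPKM value equals its count over the product of a gene's value and a library's factor (largest relative deviation 1.24e-08 over genes with more than 20 counts in every library). Coordinates of genes are from GENCODE M21 (GRCm38), which held 99.77% of the identifiers.

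Groups come from the sample titles. Low genes were removed by filterByExpr in edgeR 4.0.16, at a minimum count of 10 and a minimum total of 15, and TMM factors and the quasi-likelihood test followed (R 4.3.3), NECA against DMSO, two-sided, with Benjamini-Hochberg adjustment over 15847 genes and a threshold of 0.05. The SE is the fold change divided by the root of its F statistic. Levels are CPM for comparisons between libraries and FPKM for comparisons between genes. The scripts were checked on simulated data. The counts cover 15531996 to 18065078 reads per library, which were amplified with no molecular identifiers and so overstate the number of molecules. The chi-square per gene between any pair of libraries was at least 12.9, so none agreed within sampling noise.

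Alternatives were DESeq2 1.42.0, its size factors, no filter, a stricter filter (5 CPM in 3 libraries), a replicate block, limma 3.58.1 with library quality weights, and each library left out in turn. DESeq2 without NECA replicate 2 was added after seeing the data. The members and lists were chosen with earlier results of these data known. In each role group the 4 members with the highest mean FPKM and the 3 with the smallest p were named with values by library or fold changes, with Hspa5, Xbp1, Atf4, Ddit3 and Derl3 added. In each further list the 2 with the smallest p and the most abundant gene were named.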

Additional observations from a re-analysis of the deposited data

How the results depend on the processing

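Of 413 member fold changes under the alternatives, 380 kept their direction and 33, in 11 genes, changed sign. No member passed an adjusted p of 0.05 under any alternative run. The number of genes past the threshold was 0 with edgeR (also with any 1 library left out), 2 without an expression filter, 1 with library quality weights, 11 with DESeq2 and 32 with DESeq2 without NECA replicate 2, the causes of which were not tested. The labels do not say whether the replicate numbers pair the libraries. The correlation of deviations of same-numbered libraries was 0.04, -0.19 and -0.05, within the -0.34 to 0.26 of differently numbered ones. With 3 libraries in a group and genes that are not independent, these values cannot decide whether there is a pairing. With the replicate number as a block, 0 genes were called, the chaperone median was 0.45 and the difference between chaperone and degradation genes and the Atf4 branch 0.496.

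That difference, 0.53 with all libraries, was 0.29 with library quality weights and 0.24 with DESeq2 without NECA replicate 2, and ran from 0.24 to 0.67 with 1 library left out. The quality weights gave NECA replicate 2 the lowest weight, 0.198. The chaperone median ran from 0.23 to 0.63, and the number of chaperones above 0 from 12 to 13. The degradation median was 0.037 with library quality weights and ran from -0.084 to 0.050, and the number above 0 was 1 under the stricter filter and ran from 1, without NECA replicate 3, to 6, without DMSO replicate 2. The sensor median ran from 0.15, without DMSO replicate 2, to 0.27. The number of Atf4 branch genes above 0 was 1 under the stricter filter, which leaves out Chac1, Trib3 and, among the degradation genes, Derl3.

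Sign changes with 1 library left out gave ranges of -0.0042 to 0.46 for Creld2, -0.39 to 0.21 for Herpud1, -0.17 to 0.10 for Syvn1, -0.15 to 0.011 for Sel1l, -0.040 to 0.093 for Derl1, -0.11 to 0.0075 for Derl2, -0.16 to 0.55 for Derl3, -0.063 to 0.14 for Ern1, -0.38 to 0.044 for Trib3, -0.13 to 0.71 for Asns and -0.51 to 0.10 for Sesn2. Quality weights gave 0.11 for Herpud1, 0.037 for Derl2, -0.030 for Derl3, 0.15 for Trib3, -0.088 for Asns and 0.038 for Sesn2. DESeq2 without NECA replicate 2 gave 0.22 for Herpud1, 0.016 for Sel1l, -0.17 for Derl3, -0.12 for Asns and 0.11 for Sesn2. The stricter filter gave -0.010 for Derl1 and the replicate block -0.014 for Derl3. Low counts limit Derl3, Chac1 and Trib3, with at most 24, 59 and 78 counts in a library.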
